A study of Mus musculus with 6 samples.

Results

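Astrocytes and Bergmann glia were followed through 10 of their best known genes (Gfap, Aqp4, Slc1a2, Slc1a3, Fabp7, Glul, Apoe, Sparcl1, Gja1 and S100b) in the cerebellum of mice lacking the cell adhesion molecule L1cam. The members were all probe sets that the array annotation gives as their single symbol one of these genes. This found 9 of the 8251 genes with such a probe set, measured by 14 of the 12422 probe sets tested. Slc1a3, the glutamate transporter GLAST that marks Bergmann glia, had no probe set with its symbol, alone or among several, and has no value here. Gene expression was measured in 3 male L1cam knockouts (genotype -/Y) and 3 wild type siblings whose sex the labels do not give. All mice were congenic, of strain 129S2/SvPasCrlf and at postnatal day 11, and each cerebellum was hybridised to its own Affymetrix Murine Genome U74Av2 array. Whole cerebellum was used, so glia were measured together with neurons, vessels and any attached tissue.

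Astrocytes clear glutamate from synapses, buffer potassium and water, supply lipids to neurons and are joined to each other by gap junctions. Bergmann glia are the astrocytes of the cerebellar cortex. Their cell bodies lie beside Purkinje cells, and their radial fibres guide granule neurons as these migrate inward during the first postnatal weeks. L1cam is found mainly on growing axons and migrating neurons.

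Values are log2 levels made with RMA, a procedure that corrects background, normalizes the arrays to each other and summarises the probes of each probe set. A difference of 1 is a change by a factor of 2. Array medians lay between 8.87 and 8.94. Some markers of cerebellar neurons were bright. Mean levels lay at percentile 99.7 of all probe sets for Zic1 of granule neurons and 96.7 for Calb1 of Purkinje cells. Others on the same lists were dimmer, such as Zic2 of granule neurons (47.7 and 72.0) and Pcp4 of Purkinje cells (11.4). L1cam itself, the check of the labels, read 8.25, 8.01 and 7.91 in the knockouts, against 8.79, 8.48 and 8.73 in wild type, so the groups did not overlap (difference -0.60, limma adjusted p = 0.841, 2-sided exact permutation p = 0.1, the smallest that 3 against 3 allows). Where its probes lie relative to the altered part of the gene is not given in the sources used here. The array labelled knockout 1 stood apart in 2 ways. The Y-linked gene Eif2s3y read 7.11 there, against at least 8.59 on the other 5 arrays, although the label calls the mouse male. Uty, also Y-linked, read 6.67 there, against 7.32 to 7.45 on the others. The Y-linked Kdm5d (7.22, against 7.22 to 7.41) and Xist, the transcript of the inactive X (6.33, against 6.31 to 6.41), did not set that array apart. Both were dim, at percentiles 20.7 and 8.39 of mean level, and may be too dim to set any array apart. Uty was dim as well, at percentile 20.4. Its Gapdh signal was also 0.67 higher at the 3' end than at the 5' end of the transcript, against at most 0.13 on the other arrays, a gap that widens as RNA is broken down. Results that rest on this array are given with and without it.

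No glial probe set differed between the genotypes after adjustment. In limma, 0 of the 14 passed an adjusted p of 0.05, beside 0% of all 12422 probe sets, and the adjusted p of the members ran from 0.885 to 0.998. At an unadjusted p under 0.05 there were 2, 1 higher (Gfap) and 1 lower (Aqp4) in the knockouts, in a table where 5.08% of all probe sets met that mark, 2.46% higher and 2.62% lower. The groups did not overlap for 1 of the 14 (Aqp4), against 10.4% of all probe sets. The knockout mean was higher for 6 and lower for 8, with a median difference of -0.0084, beside -0.023 over all probe sets, of which 62.3% had the lower mean in the knockouts. After median centring of the arrays, 10 of the 14 had the higher knockout mean and the median over all probe sets was 0.0089. The 95% intervals reached from 0.13 to 0.32 log2 to either side. In whole tissue, fewer cells of a type and less RNA per cell cannot be told apart.

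**Figure D1:**
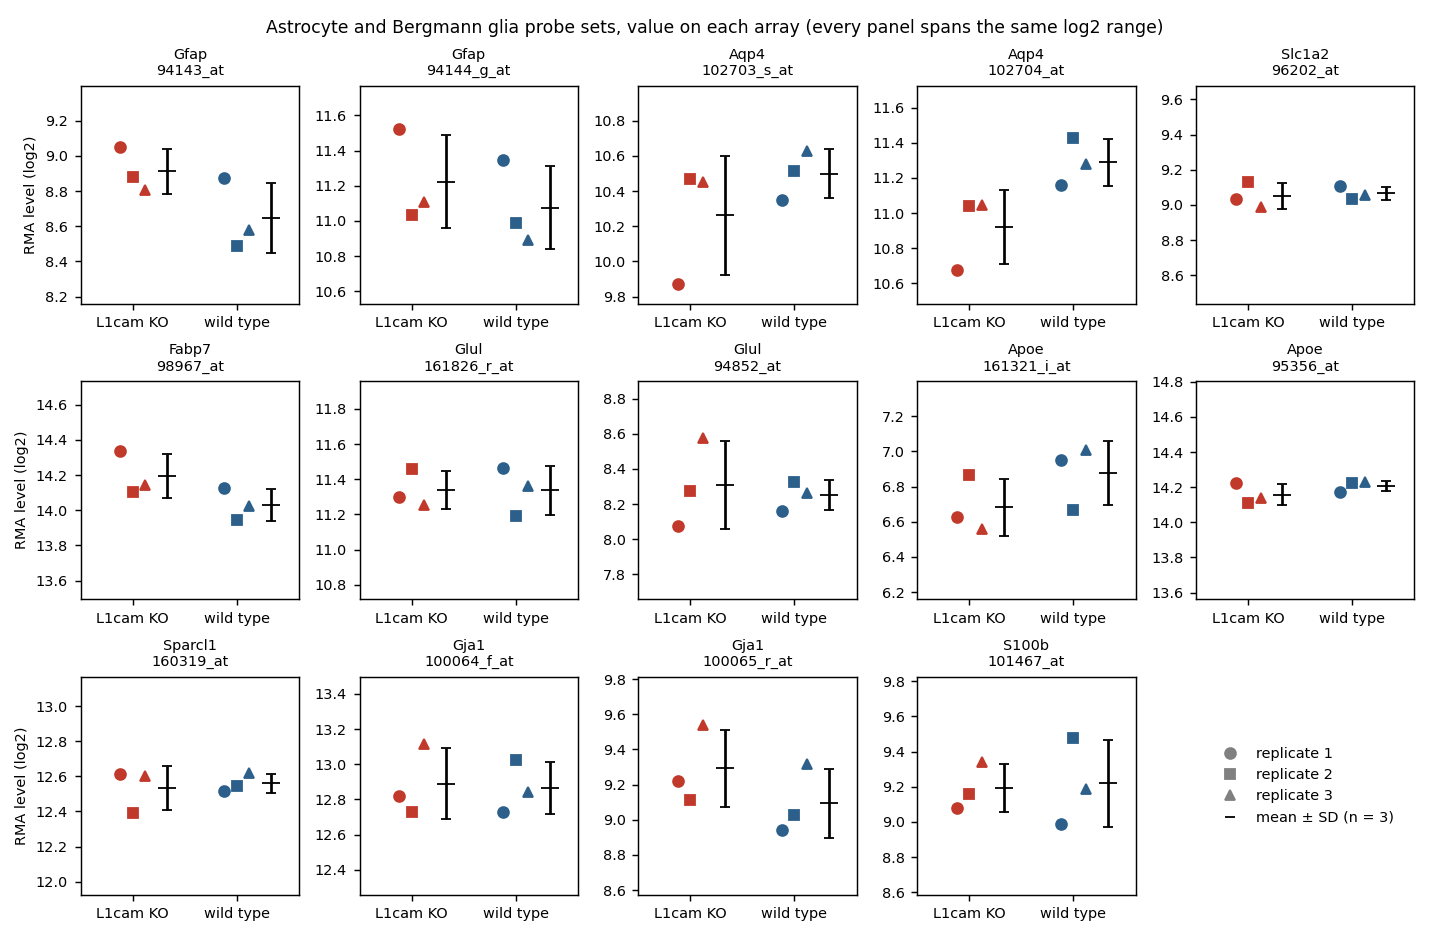
RMA log2 level of each of the 14 probe sets on each array, L1cam knockouts (red) left of wild type (blue), with the marker shape giving the replicate and black bars the mean ± SD of 3 arrays. The groups overlap in every panel except that of Aqp4 at 102704_at, where the 3 knockouts read 10.68 to 11.04 and the 3 wild type arrays 11.16 to 11.43.

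Aqp4, the water channel that astrocytes concentrate on their endfeet around vessels, had the largest difference among the members. Its probe set 102704_at read 10.68, 11.04 and 11.04 in knockouts 1 to 3, against 11.16, 11.43 and 11.28 in wild type 1 to 3. All knockouts lay below all wild type arrays, by 0.11 at the closest pair, and knockout 1 lay lowest. The means were 10.92 ± 0.21 and 11.29 ± 0.13 (SD, n = 3 each), a difference of -0.37 (SE 0.11, 95% interval -0.60 to -0.13). The knockouts were 1.29-fold lower. This was not past the threshold in limma (unadjusted p = 0.00609, adjusted p = 0.885). Without knockout 1 the difference was -0.25 (95% interval -0.44 to -0.050, adjusted p = 0.9998).

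The second Aqp4 probe set, 102703_s_at, read 9.87, 10.47 and 10.45 in the knockouts, against 10.35, 10.51 and 10.63 in wild type. Here only knockout 1 lay apart, and the other knockouts fell inside the wild type range. The difference of -0.24 (SE 0.14, 95% interval -0.56 to 0.086, limma adjusted p = 0.927) was -0.040 without knockout 1. The 2 Aqp4 probe sets therefore had the same sign, but only the first separated the groups with knockout 1 left out. Oligodendrocyte markers were also low on that array. For 12 of their 13 probe sets, from 7 of 8 listed genes, the knockout mean was lower, and their summed level (log2) was 14.59 in knockout 1, 14.90 and 15.00 in the other knockouts, against 14.81 to 15.14 in wild type. The median difference of that list was -0.14, and -0.030 without knockout 1. The part of these markers in the Aqp4 difference was not tested. With the Gapdh gap as a covariate, which mainly marks knockout 1, Aqp4 differed by -0.24 at 102704_at and by -0.0082 at 102703_s_at.

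Gja1 encodes connexin 43, the main gap junction protein of astrocytes. At 100064_f_at it read 12.82, 12.73 and 13.12 in the knockouts, against 12.73, 13.02 and 12.84 in wild type. At 100065_r_at it read 9.22, 9.12 and 9.54 in the knockouts, against 8.94, 9.03 and 9.32 in wild type. Knockout 3 was the highest array at both, and the genotypes overlapped at both. The differences were 0.025 (95% interval -0.21 to 0.26) and 0.20 (95% interval -0.070 to 0.47), with limma adjusted p of 0.979 and 0.927. With single arrays left out, the second ran from 0.075 (without knockout 3) to 0.31 (without wild type 3).

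Gfap is the intermediate filament protein that matures with astrocytes and accumulates when they react to injury. The probe set 94143_at read 9.05, 8.88 and 8.80 in the knockouts, against 8.87, 8.49 and 8.58 in wild type. Wild type 1 lay among the knockouts, and the other 2 wild type arrays lay below all of them. The means were 8.91 ± 0.13 and 8.65 ± 0.20 (SD, n = 3 each), a difference of 0.26 (SE 0.10, 95% interval 0.037 to 0.49), or 1.20-fold higher in the knockouts, with an unadjusted p of 0.0271 and an adjusted p of 0.922 in limma. Without knockout 1 the difference was 0.20, and its interval, -0.046 to 0.44, included 0.

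The second Gfap probe set, 94144_g_at, read 11.53, 11.03 and 11.11 in the knockouts, against 11.34, 10.99 and 10.89 in wild type. Replicate 1 was the highest of its group in both genotypes. The difference of 0.15 (95% interval -0.17 to 0.46, limma adjusted p = 0.932) was -0.0040 without knockout 1. The size of the Gfap difference therefore depended on which probe set was read and on single arrays, not on knockout 1 alone. Without wild type 1 it was 0.38 at 94143_at and 0.28 at 94144_g_at. Without wild type 2 these were 0.19 and 0.10.

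Fabp7, the brain lipid-binding protein, is a fatty acid carrier of radial glia and Bergmann glia. It read 14.34, 14.11 and 14.14 in the knockouts, against 14.13, 13.94 and 14.02 in wild type. Knockout 1 was again the highest array, and knockout 2 fell just below wild type 1. The means were 14.20 ± 0.12 and 14.03 ± 0.091 (SD, n = 3 each), and the difference of 0.17 (SE 0.079, 95% interval -0.010 to 0.34) was not past the threshold in limma (adjusted p = 0.922). Without knockout 1 it was 0.094, and after quantile normalization of all arrays 0.060. Other settings moved it both ways, to 0.11 after cyclic loess, 0.20 after median centring and 0.21 without wild type 1. The mean level of Fabp7 lay at percentile 99.7 of all probe sets, near the top of the range of the array.

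Apoe, the lipoprotein by which astrocytes export cholesterol, had a bright and a dim probe set. The bright one, 95356_at, read 14.22, 14.11 and 14.14 in the knockouts, against 14.17, 14.22 and 14.23 in wild type. It was the steadiest member, spanning 0.12 log2 over all 6 arrays, and its level also lay at percentile 99.7. Its difference was -0.050 (95% interval -0.18 to 0.085, limma adjusted p = 0.939), which as a ratio of knockout to wild type spans 0.880 to 1.06. It depended on the scaling, at -0.14 after quantile normalization (unadjusted p = 0.0548) and -0.10 after cyclic loess. The dim one, 161321_i_at, lay at percentile 13.8 of mean level and read 6.63, 6.87 and 6.56 in the knockouts, against 6.95, 6.67 and 7.01 in wild type. The groups overlapped there too, with a difference of -0.19 (95% interval -0.42 to 0.042, limma adjusted p = 0.922).

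Slc1a2 encodes GLT-1, the glutamate transporter that takes over much of glutamate uptake in the maturing forebrain and is less abundant than GLAST in Bergmann glia. It read 9.03, 9.13 and 8.99 in the knockouts, against 9.11, 9.04 and 9.06 in wild type. The groups were interleaved, with a difference of -0.016 (95% interval -0.16 to 0.12, limma adjusted p = 0.979), an interval that spans ratios of 0.898 to 1.09. This was a narrow interval among the members.

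Glul, glutamine synthetase, turns the glutamate taken up by astrocytes into glutamine. Its probe set 161826_r_at read 11.30, 11.46 and 11.25 in the knockouts, against 11.47, 11.19 and 11.36 in wild type, and 94852_at read 8.08, 8.27 and 8.57 in the knockouts, against 8.16, 8.33 and 8.26 in wild type. The differences were -0.00085 (95% interval -0.19 to 0.19) and 0.058 (95% interval -0.19 to 0.31), with limma adjusted p of 0.998 and 0.964. Knockout 3 was the highest array at the second probe set and the lowest knockout at the first, so the 2 probe sets did not rank the mice alike.

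Sparcl1, also called hevin, is a secreted protein by which astrocytes promote synapse formation. It read 12.61, 12.39 and 12.60 in the knockouts, against 12.52, 12.54 and 12.62 in wild type, and only knockout 2 lay outside the wild type range. The difference was -0.027 (95% interval -0.19 to 0.14, limma adjusted p = 0.975), and -0.080 after quantile normalization. S100b, a calcium-binding protein of astrocytes that is also made in the oligodendrocyte lineage, read 9.08, 9.16 and 9.34 in the knockouts, against 8.99, 9.48 and 9.19 in wild type. All knockouts lay within the wild type range, and the difference was -0.026 (95% interval -0.28 to 0.23, limma adjusted p = 0.980).

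**Figure D2:**
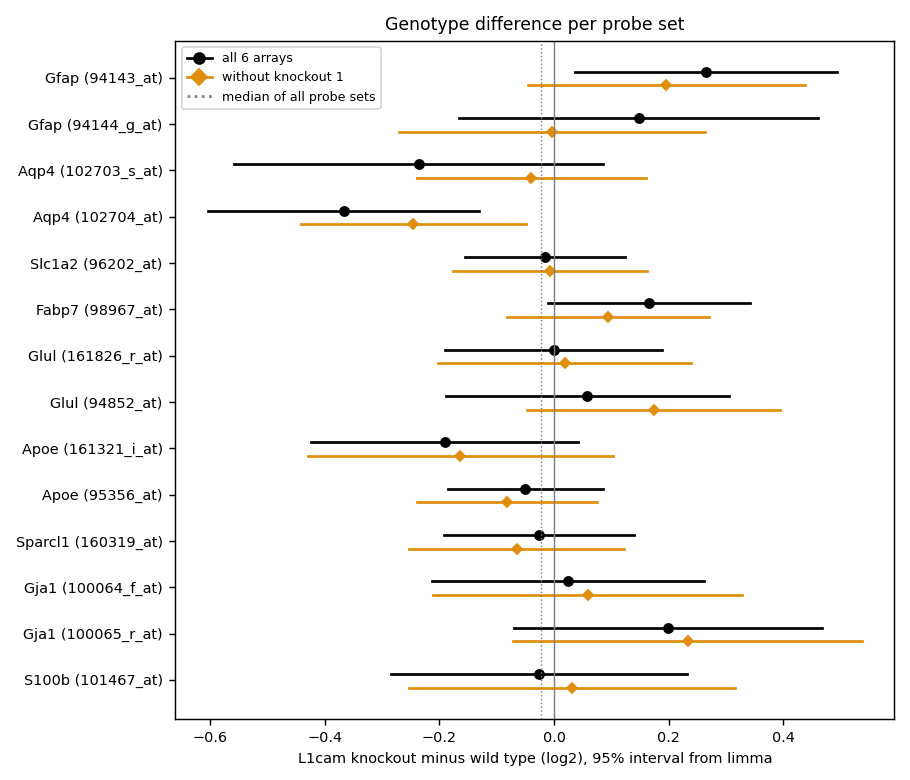
Difference between L1cam knockout and wild type (log2) for each probe set with its 95% interval from limma, from all 6 arrays (black circles) and without knockout 1 (orange diamonds). From all arrays, the intervals of Gfap at 94143_at (0.037 to 0.49) and Aqp4 at 102704_at (-0.60 to -0.13) leave out 0, and without knockout 1 that of Aqp4 alone does (-0.44 to -0.050).

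Leaving out knockout 1 brought the differences of Gfap, Aqp4 and Fabp7 closer to 0 and left the count past the adjusted threshold at 0. Other differences moved away from 0. Glul at 94852_at, where knockout 1 was the lowest array, went from 0.058 to 0.17, and its other probe set from -0.00085 to 0.018. Gja1 went from 0.025 to 0.058 and from 0.20 to 0.23. The bright Apoe probe set went from -0.050 to -0.082, Sparcl1 from -0.027 to -0.065 and S100b from -0.026 to 0.032. Of the 14 probe sets, 7 then had the higher and 7 the lower knockout mean, with a median of 0.0072, beside -0.022 over all probe sets. At an unadjusted p under 0.05 there was 1 (Aqp4), in a table where 3.88% of all probe sets met that mark. Knockout 1 was the highest array for both Gfap probe sets and Fabp7 and the lowest for both Aqp4 probe sets and for Glul at 94852_at. Within wild type, replicate 1 was likewise the highest for both Gfap probe sets and Fabp7. It was also the lowest wild type array for both Aqp4 probe sets and for Glul at 94852_at. Knockout 1 was thus the highest or lowest array for 6 of the 14, and the other arrays for 3 to 5 each. Over all probe sets, knockout 1 was the highest array for 15.0% and the lowest for 16.3%. The other arrays were the highest for 10.5% to 24.2% and the lowest for 10.1% to 29.2%. The mean absolute deviation of knockout 1 from the 6-array mean was 0.18 over the members and 0.075 over all probe sets. On the other arrays these values lay between 0.083 and 0.15 for the members and between 0.068 and 0.079 for all probe sets.

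**Figure D3:**
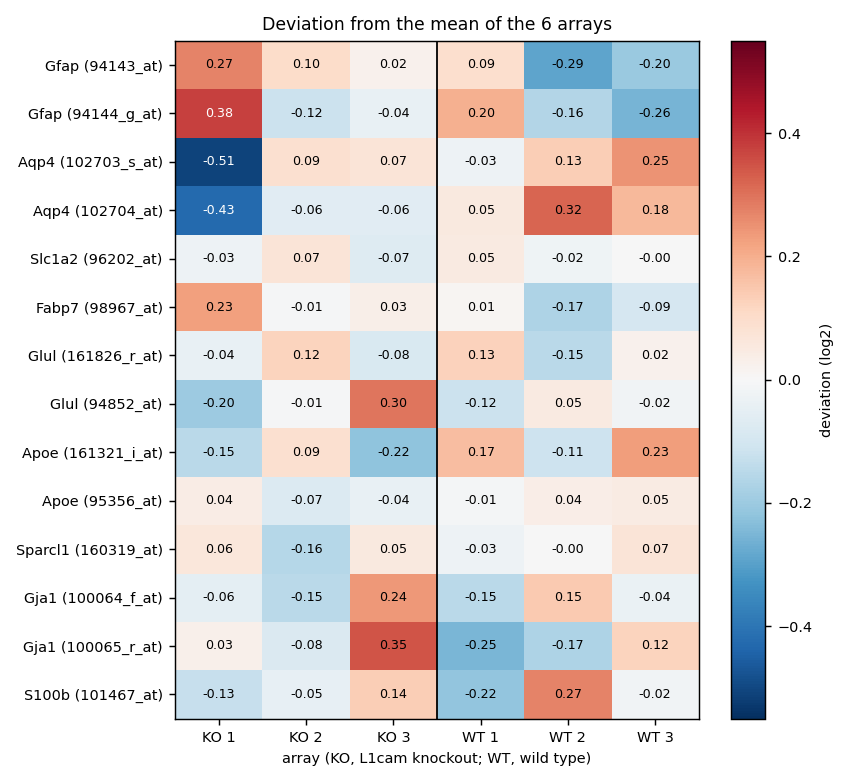
Deviation of each array from the mean of the 6 arrays (log2, red above and blue below), with L1cam knockouts left of the line and wild type right of it. Knockout 1 shows the strongest colours, 0.38 for Gfap at 94144_g_at and -0.51 for Aqp4 at 102703_s_at, while Slc1a2 and Apoe at 95356_at stay within 0.08 on every array.

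Arrays of one genotype differed from each other more at most of these probe sets than at a typical probe set. With 1 array per mouse, differences between mice and between arrays cannot be told apart. The within-genotype SD had a median of 0.17 log2 over the 14, against 0.086 over all 12422 and 0.087 over those above percentile 40 of mean level. It lay above the median of all probe sets for 12 of the 14 and above percentile 90 for 9. The exceptions on the low side were Slc1a2 (percentile 21.1) and Apoe at 95356_at (percentile 11.8). The widest spreads belonged to Aqp4 at 102703_s_at, whose knockouts spanned 0.60, and Gfap at 94144_g_at, whose knockouts spanned 0.49 and wild type 0.45. In wild type alone, S100b spanned 0.49 and Gfap at 94143_at 0.38. Per group, the median SD of the members was 0.15 in the knockouts and 0.14 in wild type. It was 0.21 and 0.17 for oligodendrocyte markers, 0.098 and 0.090 for other astrocyte markers, and 0.082 and 0.075 over all probe sets. The spread of the members is a description of 14 probe sets from 9 genes and was not tested.

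**Figure D4:**
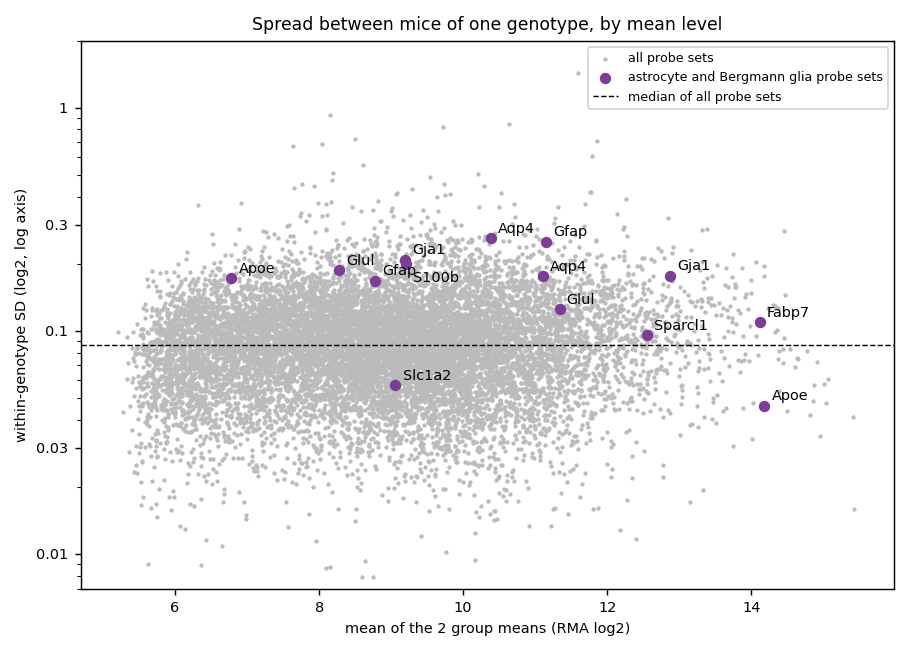
Within-genotype SD (log2, log axis) against mean level for all probe sets (grey) and the 14 glial ones (purple), with the median of all probe sets dashed. Of the 14, 12 lie above the dashed line and Slc1a2 and the brighter Apoe probe set below it, while 1 probe set of the whole table falls under the axis and is not drawn.

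For the 5 genes with 2 probe sets, the profiles over the mice were compared. The root mean square distance between the centred profiles of the 2 was 0.12 for Gfap, 0.12 for Aqp4, 0.16 for Gja1, 0.17 for Apoe and 0.22 for Glul. The deviations lay on the same side of the mean on 4 of 6 arrays for Gfap, on 3 for Aqp4 and Gja1, on 2 for Apoe and on 1 for Glul. Several of these probe sets carry the endings g, f, r, i or s, which mark probes shared with other sequences or a reduced probe rule, and the sequences of the probes were not used here.

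By the same distance, the profile of Aqp4 at 102704_at over the 6 arrays was nearest to those of Rnf112 (0.087) and Fxyd7 (0.092) among 235 probe sets of at least comparable spread. Aqp4 at 102703_s_at was nearest to Snw1 (0.053) and again to Rnf112 (0.058). Gfap at 94143_at was nearest to Pa2g4 (0.056) and Ebf3 (0.071), and Fabp7 to Gtpbp1 (0.033) and Hnrnpd (0.033). S100b was nearest to Dbndd2 (0.034) and Gpr37l1 (0.042). With 6 arrays such matches are a description.

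Genes that work with the members were read from the same fit in 7 lists, and no probe set on them passed the adjusted threshold. Over all probe sets, 5.08% had an unadjusted p under 0.05, 2.46% higher and 2.62% lower in the knockouts, and 3.88% did without knockout 1. The groups did not overlap for 10.4% of all probe sets. For glutamate uptake and the glutamine cycle, 0 of 20 probe sets (13 of 21 listed genes) reached an unadjusted p under 0.05, and the median difference was -0.017. The neutral amino acid transporter Slc1a4 read 11.37, 11.21 and 11.34 in the knockouts, against 11.31, 11.21 and 11.15 in wild type, and differed by 0.083. Glud1, the mitochondrial glutamate dehydrogenase, differed by -0.10 at 162364_f_at and by 0.071 at another probe set.

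Among connexins and channels of the endfoot, 1 of 23 probe sets (16 of 27 genes) reached an unadjusted p under 0.05, and it was lower in the knockouts (median -0.019). Without knockout 1 there were 0. The probe set was that of Slc4a4, a sodium bicarbonate cotransporter, which read 9.15, 9.37 and 9.43 in the knockouts, against 9.36, 9.60 and 9.72 in wild type (difference -0.24, limma adjusted p = 0.922, and -0.16 without knockout 1). Dtna, the dystrobrevin of the complex that holds Aqp4 at the endfoot, differed by 0.14 at 92183_at and by -0.086 at 92184_at.

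Among filament, S100 and fatty acid-binding relatives, 1 of 26 probe sets (17 of 22 genes) reached that mark, and it was lower (median -0.016). The probe set was that of S100a13 at 161862_i_at, which differed by -0.22. Its 3 further probe sets differed by -0.023 to 0.065. Fabp1, the liver form of the fatty acid-binding proteins, differed by -0.20 at a dim probe set (percentile 13.7) and by 0.13 at another. Without knockout 1 the count was again 1, with the dim Fabp1 probe set (-0.27) in place of S100a13.

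For partners of Apoe in lipid transport, 3 of 22 probe sets (16 of 20 genes) reached it, all lower (median -0.024), beside 2.62% of all probe sets. Without knockout 1, 2 did so. Npc1, which moves cholesterol out of lysosomes, read 9.86, 9.79 and 9.86 in the knockouts, against 9.95, 10.03 and 10.03 in wild type. The groups did not overlap, with a difference of -0.16 (SE 0.059, limma adjusted p = 0.922) that was -0.18 without knockout 1. Sorl1, a sorting receptor that binds Apoe, differed by -0.30 (SE 0.11, limma adjusted p = 0.922) and by -0.21 without knockout 1.

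In the SPARC family and among matrix proteins, 3 of 22 probe sets (15 of 22 genes) reached it, all higher in the knockouts (median 0.0023). Of all probe sets, 2.46% did so in that direction. Without knockout 1 there were 0. Sparc, the secreted relative of Sparcl1 that counters its effect on synapses, read 11.43, 11.13 and 11.21 in the knockouts, against 10.91, 11.14 and 10.98 in wild type (difference 0.25, SE 0.090, limma adjusted p = 0.922). Fstl1, a secreted protein with a SPARC-like calcium-binding part, differed by 0.22 (SE 0.082, limma adjusted p = 0.922). Without knockout 1 they differed by 0.16 and 0.17. Sparc is also made by vessels and meninges, and meningeal and fibroblast markers had a median difference of 0.073, with 11 of 14 probe sets higher and a summed level (log2) of 15.20 to 15.43 in the knockouts and 15.09 to 15.36 in wild type. Their part in the Sparc difference was not tested.

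Of 42 probe sets for Bergmann glia development and Notch signalling (29 of 36 genes), 3 reached an unadjusted p under 0.05, all lower in the knockouts (median -0.027). Of all probe sets, 2.62% did so in that direction. Without knockout 1, 3 were lower and 1 higher. The groups did not overlap for 6, all lower, in a table where 6.63% of all probe sets were lower and 3.76% higher without overlap. Hes5, a transcription factor that Notch switches on in radial glia and Bergmann glia, accounted for 2 of both counts. It read 7.56, 7.50 and 7.27 in the knockouts, against 7.79, 7.62 and 7.69 in wild type at 162069_at, and 8.02, 7.92 and 7.94 in the knockouts, against 8.23, 8.12 and 8.03 in wild type at 161051_at. All knockouts lay below all wild type arrays at both probe sets. The differences were -0.26 (SE 0.084) and -0.17 (SE 0.069), each with a limma adjusted p of 0.922, and -0.31 and -0.20 without knockout 1. Both probe sets were dim, at percentiles 24.8 and 32.8 of mean level.

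Of 33 probe sets for other astrocyte markers (22 of 31 genes), 3 reached the mark, 1 higher and 2 lower (median -0.0097), beside 5.08% of all probe sets. Without knockout 1, 0 did so. Itpr2, the calcium release channel of astrocytes, differed by -0.24 at 101441_i_at and by -0.066, 0.034 and -0.011 at 3 further ones. Ntrk2, the BDNF receptor, whose truncated form is made by astrocytes, read 7.34, 7.69 and 7.24 in the knockouts, against 7.71, 7.66 and 7.69 in wild type. Knockout 2 lay within the wild type range, and the difference was -0.26 (SE 0.10, limma adjusted p = 0.922).

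Ependyma, which also expresses Aqp4, and choroid plexus were read from 5 probe sets of 4 of 7 listed genes. Their summed level (log2) was 13.12, 13.06 and 11.82 in the knockouts, against 11.79, 13.11 and 12.83 in wild type. Ttr, the main product of the choroid plexus, read 12.56, 12.43 and 10.20 in the knockouts, against 9.71, 12.55 and 12.13 in wild type. Knockout 3 and wild type 1 were low for Ttr and in the sum, and each genotype held 1 such array. Ttr was the brightest of these genes and weighs most in the sum. Kl was also lowest on these arrays, at 7.53 and 7.60. Foxj1 read 9.80, 9.84 and 9.67 in the knockouts, against 9.83, 9.80 and 9.78 in wild type, so wild type 1 was not low there. The sum therefore does not read ependyma apart from choroid plexus. Microglial markers, which mark cells that also make Apoe, had a median difference of 0.011 over 9 probe sets and a summed level (log2) of 11.84 to 11.96 in the knockouts and 11.84 to 12.01 in wild type. Vascular markers, for the vessels that the endfeet cover, had a median difference of 0.015 over 8 probe sets and summed levels of 12.42 to 12.47 in the knockouts and 12.37 to 12.46 in wild type. Precursors of oligodendrocytes, which also make Fabp7, had a median difference of 0.00028 over 5 probe sets of 2 of 5 listed genes, Pdgfra and Sox10. The knockout mean was higher for 3 and lower for 2, with differences from -0.083 to 0.17. The largest was that of the brightest probe set, of Pdgfra (limma adjusted p = 0.922). It read 11.18, 10.92 and 11.04 in the knockouts, against 10.94, 10.90 and 10.81 in wild type. The part of these cells in the Fabp7 difference was not tested.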

How the data were processed

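Biotin-labelled total RNA from 6 cerebella was hybridised, 1 array per mouse. The deposited values are log2 expression values that the authors made with RMA, per the submitters' processing notes. The sources used here do not give its version, its settings or a genome build. The values were used as deposited. Of 12488 probe sets, 66 array controls were left out. The annotation table named a single gene for 10833 probe sets, more than one for 396 and no gene for 1193. The RefSeq table of GRCm38.p6 held 10817 of the 10833 gene identifiers and changed 0 symbols.

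Genotypes were compared with limma 3.58.1 in R 4.3.3 (lmFit and eBayes, 2-sided, genotype as the only term), with Benjamini-Hochberg adjustment over all 12422 probe sets and a threshold of 0.05. The members' rows were read from that fit, and lists were described by counts and medians without a test. Members and lists were chosen with earlier results of these data known. From each list, the 2 probe sets of smallest unadjusted p were named. Likeness was the root mean square distance between centred profiles, over probe sets above percentile 40 of mean level with an SD of at least 0.8 times the member's.

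Arrays carry no read depth, and 3 per group limit the precision. The median 95% interval reached 0.158 log2 to either side, and a lone probe set at the median SE would need 0.636 log2 to pass. Nothing in the sources says how each array relates to a litter, and the series' design counts 3 mice per genotype. On simulated data of 12422 probe sets, with 200 changed, the fit recovered 98% of the 1.5-fold and 100% of the 2-fold changes and made 13 false calls. With 200 changed, the adjusted threshold is easier to reach than here, where 0 passed and L1cam, 1.52-fold lower, did not. These rates therefore do not say that a lone 1.5-fold change would have been called in these data. Alternatives covered the scaling, filter, variance, array weights, replicate block, Gapdh covariate, probe set choice, threshold and each array left out.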

Additional observations from a re-analysis of the deposited data

Results flagged for a closer look

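Control probe sets at the 3' and 5' ends of abundant transcripts, which are outside the comparison of genotypes, showed a larger gap on some knockout arrays than on any wild type array. For Gapdh the gap was 0.668 in knockout 1 and 0.13 in knockout 3, where wild type reached 0.125. For Actb it was 1.09 in knockout 1 and 0.95 in knockout 3, against at most 0.931. For pyruvate carboxylase it was 0.879 in knockout 1, against at most 0.851, and for the transferrin receptor 1.334 in knockout 1 and 1.48 in knockout 3, against at most 1.33. Knockout 1 exceeded the wild type arrays at all 4 controls, by 0.54 for Gapdh and far less elsewhere. Knockout 1 was also the highest array for Gfap and Fabp7 and the lowest for Aqp4. The part of these gaps in those values was not tested.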

How the results depend on the processing

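The number of glial probe sets past the adjusted threshold was 0 under all 17 alternatives, and their smallest adjusted p was 0.424. Over all probe sets the count was 0 under each, except 1 without knockout 3, so it ran from 0 to 1 with single arrays left out. L1cam stayed lower and unpassed wherever it was tested, and the filter at percentile 40 of mean level left it out. The members' median was 0.023 after median centring, and ran from -0.051 without knockout 3 to 0.033 without wild type 2. Differences near 0 changed sign. Quantile normalization gave 0.014 for Slc1a2, -0.0051 for Gja1 at 100064_f_at and 0.0021 for S100b. Median centring gave 0.016 for Slc1a2, 0.031 for Glul at 161826_r_at, 0.0053 for Sparcl1 and 0.0057 for S100b. Cyclic loess gave 0.0088 for Slc1a2 and -0.011 for Gja1 at 100064_f_at. The Gapdh covariate gave -0.045 for Gfap at 94144_g_at, 0.027 for Glul at 161826_r_at and 0.029 for S100b, and 1 value per gene gave 0.029 for Glul. With single arrays left out the range was -0.0040 to 0.28 for Gfap at 94144_g_at, -0.056 to 0.015 for Slc1a2, -0.076 to 0.063 for Glul at 161826_r_at, -0.075 to 0.17 for Glul at 94852_at, -0.065 to 0.046 for Sparcl1, -0.089 to 0.10 for Gja1 at 100064_f_at and -0.14 to 0.10 for S100b. The cause of these turns was not tested. With single arrays left out, Aqp4 at 102704_at ran from -0.43 to -0.25 and Gfap at 94143_at from 0.19 to 0.38. Fabp7 ran from 0.094 to 0.21 and Gja1 at 100065_r_at from 0.075 to 0.31. At an unadjusted p under 0.05, 5 members met the mark with array weights, with the replicate block and without knockout 2, against 2 in the fit as reported. Over all probe sets it was met by 1162 with array weights, 634 with the replicate block, 1078 without knockout 2 and 395 without wild type 3, against 631. Of those 631, 48.3% were higher in the knockouts, against 66.0% after quantile normalization, 79.1% after median centring, 66.3% after cyclic loess and 62.1% after the filter. Whether numbers shared between genotypes pair the mice is not known. Deviations of same-numbered arrays correlated at 0.16, -0.32 and 0.17, which cannot settle it, because differently numbered arrays were not set beside them. The replicate block lowered the SE of some members, as from 0.14 to 0.074 for Gfap at 94144_g_at. It raised that of others, as from 0.063 to 0.074 for Slc1a2. With the replicate block the members' median stayed at -0.0084 and L1cam had a limma adjusted p of 0.196. That of Aqp4 at 102704_at was 0.441 and that of Gfap at 94143_at 0.579, and no call changed.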
